A study of Mus musculus with 6 samples.

Results

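Canonical Wnt signalling was examined through 10 genes of the 17920 in the deposited table, 3 that are feedback targets of the pathway (Axin2, Lef1 and Nkd1) and 7 that encode its components (Tcf7l1, Tcf7l2, Ctnnb1, Apc, Lrp6, Wnt7b and Sfrp1). They were chosen by symbol for their place in the pathway in dorsal cortex, with earlier results of these data known, and all 10 were found in the table. The libraries came from cells of the mouse cerebral cortex at E13.5, a mid-gestation stage of the embryo, dissociated and grown in culture. The 3 WT libraries were from cultures infected with a control shRNA lentivirus, and the 3 KD libraries from cultures in which shRNA lowered Ybx1, which encodes an RNA-binding protein that reads 5-methylcytosine in mRNA. Both groups thus carried a lentivirus and had been exposed to puromycin, an antibiotic that kills uninfected cells. The sample titles name only cortex, and the series text mentions a deletion of Ybx1, but the study's methods set out these infected cultures, which it calls neural stem cells in one place and neurons in another. Which hairpin the libraries carried is not given in the sources used here. Each group held 3 independent replicate experiments according to the methods. In mixed cultures, fewer cells of a type and less RNA per cell cannot be told apart.

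In the canonical Wnt pathway, a secreted Wnt ligand binds a Frizzled receptor and the coreceptor Lrp5 or Lrp6 at the cell surface. This stops a destruction complex built around Axin and Apc from marking beta-catenin, the product of Ctnnb1, for degradation, and beta-catenin then joins TCF/LEF factors on DNA to activate target genes. Axin2, Nkd1 and Lef1 are such targets in many tissues, and the first 2 encode proteins that dampen the signal again. In the embryonic cortex the pathway is known for its part in progenitor expansion, in dorsal patterning from the cortical hem and in the onset of neurogenesis.

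Promoter sequences of the targets are shown because TCF/LEF factors act through short DNA words. RefSeq (GRCm38.p6) gave windows of 300 bases, from 250 before to 50 after a start site, for 6 of the 10 genes, 11 windows in all. None was at hand for Lrp6, Wnt7b, Sfrp1 and Apc. Each window was searched on both strands for 4 words that TCF/LEF factors are known to bind, the word CTTTGAA, its variant CTTTGAT, and likewise CTTTGTA or its variant CTTTGTT, which share the letters CTTTG and cannot match at the same place. A word was found in 2 of the 11 windows, against 16.9% of all 32851 promoters in the same table. The windows of Axin2 at chr11:108920099-108920398 and of Nkd1 at chr8:88527383-88527682 held none of the words and are shown as those of the targets that rose. A window of Lef1 at chr3:131156044-131156343 and one of Tcf7l2 at chr19:55895071-55895370 are those with a word, printed in capitals. All are on the plus strand and written 5′ to 3′.
Axin2: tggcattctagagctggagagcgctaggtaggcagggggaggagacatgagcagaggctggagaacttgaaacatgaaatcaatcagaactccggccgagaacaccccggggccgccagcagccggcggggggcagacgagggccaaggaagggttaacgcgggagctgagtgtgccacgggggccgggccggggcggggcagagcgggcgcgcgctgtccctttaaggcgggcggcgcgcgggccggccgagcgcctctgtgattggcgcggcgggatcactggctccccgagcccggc
Nkd1: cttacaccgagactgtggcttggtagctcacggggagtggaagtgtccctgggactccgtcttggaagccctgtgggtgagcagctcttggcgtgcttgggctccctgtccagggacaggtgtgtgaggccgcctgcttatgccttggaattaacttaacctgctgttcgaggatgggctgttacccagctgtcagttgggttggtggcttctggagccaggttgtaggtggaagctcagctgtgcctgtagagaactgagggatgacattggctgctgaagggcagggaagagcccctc
Lef1: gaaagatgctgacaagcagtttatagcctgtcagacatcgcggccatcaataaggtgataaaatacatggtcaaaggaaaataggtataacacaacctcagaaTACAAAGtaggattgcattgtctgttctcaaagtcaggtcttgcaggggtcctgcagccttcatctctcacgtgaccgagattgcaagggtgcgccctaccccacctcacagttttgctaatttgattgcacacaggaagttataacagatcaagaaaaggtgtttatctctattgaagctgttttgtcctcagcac
Tcf7l2: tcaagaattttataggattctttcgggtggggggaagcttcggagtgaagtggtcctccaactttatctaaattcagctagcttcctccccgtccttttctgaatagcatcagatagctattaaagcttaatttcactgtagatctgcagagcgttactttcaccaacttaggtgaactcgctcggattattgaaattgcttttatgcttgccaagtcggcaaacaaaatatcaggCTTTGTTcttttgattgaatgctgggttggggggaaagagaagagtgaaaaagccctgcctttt
The Axin2 window held 31 CG dinucleotides and the Nkd1 window 6, against a median of 7 over all promoters. The start is 2521 bases downstream of the gene's first in Axin2 and 6291 in Nkd1. No window at the first start of either gene was searched. In Lef1 the word lies on the minus strand, so its reverse complement TACAAAG is printed, beginning 147 bases before a start that is 45997 bases downstream of the gene's first. In Tcf7l2 CTTTGTT begins 14 bases before a start 153524 bases downstream of the first. The other windows of Lef1, at starts 0, 26 and 2494 bases from the first, and of Tcf7l2, at 13 bases, held no word. The files give 1 count per gene, so which start was used was not measured, and a word or its lack in these windows says nothing of binding elsewhere.

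Library totals were nearly equal, between 16294635 and 16497505 estimated counts. Normalised counts (CPM) are counts per 1000000 of a library's total over the tested genes after TMM scaling, which corrects for composition. Errors are SD over n = 3 libraries. Fold changes, SE and adjusted p come from the quasi-likelihood test of edgeR with Benjamini-Hochberg adjustment over 13669 tested genes. The targeted gene Ybx1 went from 629 ± 21.0 CPM in WT to 116 ± 36.8 in KD, with KD libraries at 15.6%, 14.7% and 25.3% of the WT mean (log2 fold change -2.43, SE 0.18, adjusted p = 1.8e-04). Of all genes tested, 24.0% were called at an adjusted p under 0.05, 12.04% higher and 11.9% lower in KD, and the median log2 fold change was -0.00. Whether same-numbered libraries belong together was checked and they do deviate together, so results of the test with the replicate number as a block are given too where calls change. With the block, 36.6% of genes were called, 18.6% higher and 18.1% lower.

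Of the 10 Wnt genes, 9 passed the filter on low counts and 6 of these 9 were called, against 24.0% of all genes tested. Axin2, Nkd1, Ctnnb1, Lrp6 and Sfrp1 were higher in KD (5 of 9, against 12.04% of all genes) and Apc was lower (1 of 9, against 11.9%), while Tcf7l1, Tcf7l2 and Wnt7b were not called and Lef1 was too low to test. The same 6 genes had no overlap between KD and WT libraries, a pattern found for 41.6% of genes tested. The median log2 fold change was 0.53 over the 2 tested targets and 0.27 over the 7 components. All 9 fitted changes were below 2-fold. With the replicate block, 7 of the 9 were called higher (18.6% of all genes) and 1 lower (18.1%).

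**Figure D1:**
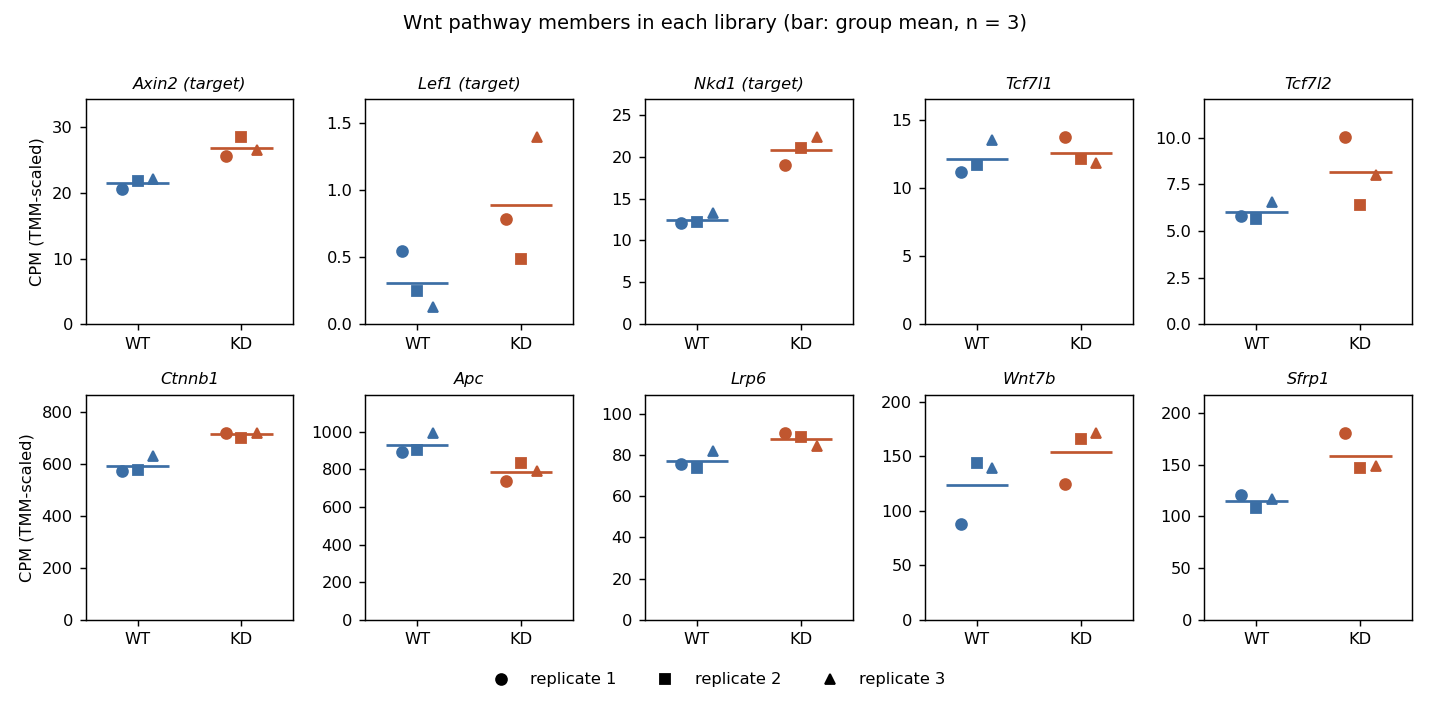
Normalised counts (CPM, linear axes from 0) of the 10 Wnt genes in each library, with WT in blue, KD in orange, bars for group means and symbols for replicate numbers. The KD points lie above the WT points for Axin2, Nkd1, Ctnnb1, Lrp6 and Sfrp1 and below them for Apc, and the groups overlap for Lef1, Tcf7l1, Tcf7l2 and Wnt7b.

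Of the 2 feedback targets tested, Nkd1 had the larger change. Nkd1 (Entrez Gene 93960, chr8:88521342-88594887, plus strand) encodes Naked cuticle 1, which binds Dishevelled and restrains the signal. Its levels were 12.1, 12.2 and 13.3 CPM in WT replicates 1, 2 and 3 and 19.1, 21.1 and 22.4 CPM in KD replicates 1, 2 and 3. Every KD library was above every WT library, and the gap between the groups was wider than the spread within either. The log2 fold change was 0.74 (SE 0.09, 95% interval 0.52 to 0.95, adjusted p = 0.00146), a rise of 66.5% in the fitted level. Same-numbered libraries differed by 0.66, 0.79 and 0.75 on the log2 scale. The call held in all 15 alternative analyses, with log2 fold changes of 0.68 to 0.80.

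Axin2 (Entrez Gene 12006, chr11:108917828-108950783, plus strand) encodes a scaffold of the destruction complex and is a widely used reporter of canonical Wnt activity. It was measured at 20.6, 21.8 and 22.2 CPM in WT and at 25.6, 28.6 and 26.5 CPM in KD. The groups did not overlap, the lowest KD library being replicate 1. The fitted log2 fold change was 0.32 (SE 0.07, 95% interval 0.15 to 0.48, adjusted p = 0.0154). It was 0.31, 0.39 and 0.26 between same-numbered libraries, with an adjusted p of 0.00283 in the test with the replicate block. Leaving out WT replicate 1 gave an adjusted p of 0.0507, WT replicate 2 one of 0.0518 and KD replicate 2 one of 0.0650, over a range of 0.00283 to 0.0650 in 15 alternatives.

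Lef1 (Entrez Gene 16842, chr3:131110297-131224357, plus strand) encodes a TCF/LEF factor that is itself a Wnt target. The estimated counts were 9, 4 and 2 reads in WT and 13, 8 and 23 in KD, 15 against 44 in all. In CPM, WT was at 0.546, 0.247 and 0.125 and KD at 0.781, 0.488 and 1.39. KD replicate 2 lay below WT replicate 1, so the groups overlapped, and KD replicate 3 alone held over 1 CPM. Between same-numbered libraries the log2 differences were 0.52, 0.98 and 3.48, the last resting on 2 reads in WT and 23 in KD. An exact two-sided permutation test of the CPM over the 6 libraries gave p = 0.2, where 0.1 is the smallest p this design allows. Without the filter the log2 fold change was 1.51 (SE 0.55, adjusted p = 0.0820), and over the 5 settings in which Lef1 was tested it lay between 1.15 and 2.21, with adjusted p from 0.0513 to 0.212. At these counts a difference in Lef1 was not resolved.

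Of the components, Ctnnb1 (Entrez Gene 12387, chr9:120933400-120960507, plus strand) encodes beta-catenin, which carries the signal to the nucleus and also serves in cell adhesion. It was at 573, 576 and 632 CPM in WT and at 721, 702 and 722 CPM in KD. The KD libraries lay close together and all above WT. In the fit, the log2 fold change was 0.27 (SE 0.05, 95% interval 0.16 to 0.38, adjusted p = 0.0062), with same-numbered differences of 0.33, 0.28 and 0.19, and the call held in all 15 alternatives.

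Apc (Entrez Gene 11789, chr18:34220297-34322190, plus strand) encodes the large scaffold of the destruction complex, and was the one gene of the 10 called lower. Its levels were 895, 903 and 996 CPM in WT and 740, 835 and 791 CPM in KD. No KD library reached the lowest WT library. Relative to WT, the log2 fold change was -0.24 (SE 0.06, 95% interval -0.38 to -0.10, adjusted p = 0.0212), and -0.27, -0.11 and -0.33 between same-numbered libraries. On log2(TPM + 1) the change was -0.18 (limma adjusted p = 0.0912), and in edgeR the adjusted p came to 0.0533 when WT replicate 2 was left out and 0.0582 when KD replicate 1 was. The range over 15 alternatives was 0.00119, with the replicate block, to 0.0912.

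At the cell surface, Lrp6 (Entrez Gene 16974, chr6:134446476-134566913, minus strand) encodes the Wnt coreceptor. It was at 75.5, 73.6 and 81.9 CPM in WT and at 90.8, 88.5 and 84.4 CPM in KD. The groups did not overlap, but KD replicate 3 and WT replicate 3 lay close, and same-numbered libraries differed by 0.27, 0.27 and 0.04. The log2 fold change was 0.19 (SE 0.06, 95% interval 0.06 to 0.32, adjusted p = 0.0434, and 0.0181 with the replicate block). This call was lost in 7 of 15 alternatives, among them DESeq2 (adjusted p = 0.0628), upper quartile scaling (0.0669), log2(TPM + 1) in limma (0.0685) and the test without WT replicate 1 (0.111), WT replicate 2 (0.148), KD replicate 1 (0.121) or KD replicate 2 (0.123), over a range of 0.0181 to 0.148.

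Sfrp1 (Entrez Gene 20377, chr8:23411383-23449632, plus strand) encodes a secreted Frizzled-related protein that can hold Wnt ligands away from their receptors. It was at 121, 109 and 117 CPM in WT and at 181, 146 and 149 CPM in KD. Replicate 1 was the highest library of either group, and all KD libraries were above all WT libraries. The fitted log2 fold change was 0.46 (SE 0.08, 95% interval 0.27 to 0.65, adjusted p = 0.00617), the largest among the components called, with same-numbered differences of 0.58, 0.43 and 0.35. The call held in all 15 alternatives.

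Wnt7b (Entrez Gene 22422, chr15:85535437-85581821, minus strand) encodes a Wnt ligand known from cortical neurons. It was at 88.2, 144 and 140 CPM in WT and at 125, 166 and 172 CPM in KD. In both groups replicate 1 was well below the others, so KD replicate 1 fell inside the WT range. In the fit, the log2 fold change was 0.32 (SE 0.18, 95% interval -0.09 to 0.73, adjusted p = 0.231) without the block and 0.33 (SE 0.06, adjusted p = 4.18e-04) with the replicate block. KD was higher in 3 of 3 replicate numbers, by 0.50, 0.21 and 0.30 on the log2 scale. Over the 15 alternatives it lay between 0.12 and 0.45, and the lowest value came without WT replicate 1.

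Tcf7l2 (Entrez Gene 21416, chr19:55741797-55933659, plus strand) encodes a TCF factor that activates targets together with beta-catenin. It was at 5.83, 5.62 and 6.54 CPM in WT and at 10.04, 6.41 and 8.001 CPM in KD. KD replicate 2 lay below WT replicate 3, and KD replicate 1 was the highest. Relative to WT, the log2 fold change was 0.44 (SE 0.17, 95% interval 0.05 to 0.83, adjusted p = 0.0944), and 0.43 (SE 0.14, adjusted p = 0.0281) with the replicate block. Same-numbered libraries differed by 0.78, 0.19 and 0.29. Without KD replicate 1 the change was 0.27 (adjusted p = 0.279).

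Tcf7l1 (Entrez Gene 21415, chr6:72626371-72789045, minus strand) encodes a TCF factor known mainly as a repressor of Wnt targets. It was at 11.2, 11.7 and 13.51 CPM in WT and at 13.8, 12.1 and 11.8 CPM in KD. The groups overlapped, and the same-numbered differences of 0.30, 0.05 and -0.19 did not share a sign. The log2 fold change was 0.05 (SE 0.11, adjusted p = 0.776), and its 95% interval, -0.21 to 0.31, includes a rise of the size called in Ctnnb1 (0.27) but not a fall of the size called in Apc (-0.24).

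**Figure D2:**
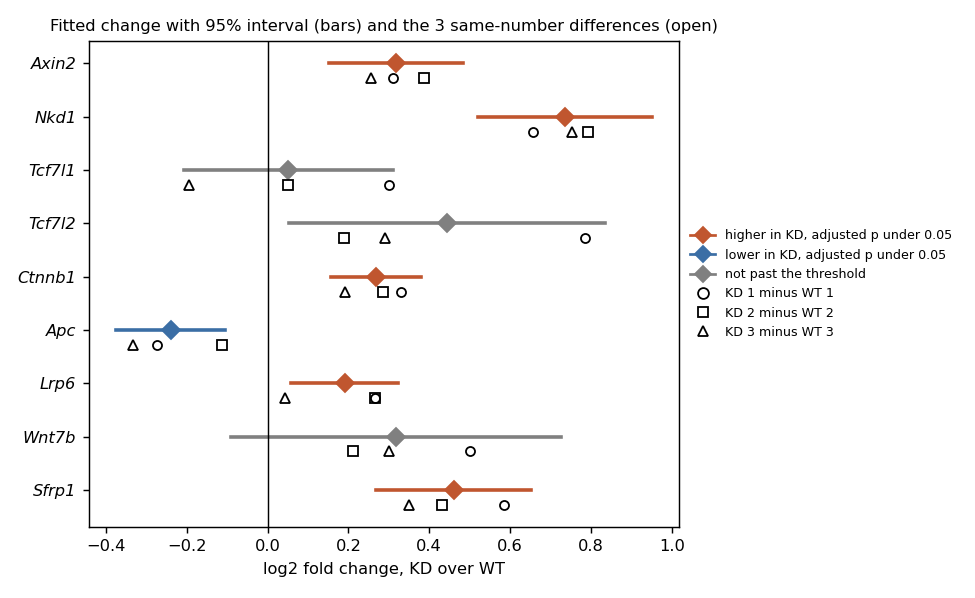
Log2 fold change of KD over WT for the 9 tested Wnt genes, with 95% intervals as bars and the 3 differences between same-numbered libraries as open symbols. The intervals of Nkd1, Axin2, Ctnnb1, Lrp6 and Sfrp1 lie above 0 and that of Apc below it, and that of Tcf7l2 also lies above 0 although its adjusted p was not under the threshold. The symbols lie on both sides of 0 only for Tcf7l1.

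Levels of different genes were compared on TPM, which divides by transcript length. Ctnnb1 was the highest of the 10 in WT at 354 ± 23.9 TPM, above 97.7% of listed genes, followed by Apc at 175 ± 13.7, Wnt7b at 79.1 ± 19.9, Sfrp1 at 56.2 ± 3.48 and Lrp6 at 16.9 ± 1.16 TPM. The targets stood lower, Axin2 at 10.8 ± 0.503 TPM and Nkd1 at 8.18 ± 0.610 TPM, with Tcf7l1 between them at 9.45 ± 1.06 TPM. Tcf7l2 followed at 3.32 ± 0.333 TPM and Lef1 was the lowest at 0.197 ± 0.146 TPM. In WT, 6 of the 9 neighbouring pairs in this order had separate libraries. Those of Wnt7b and Sfrp1, of Axin2 and Tcf7l1 and of Tcf7l1 and Nkd1 overlapped.

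In KD the order of the means was the same but for Nkd1, which at 14.0 ± 1.65 TPM had passed Tcf7l1 at 10.1 ± 0.942 TPM. The lowest Nkd1 library in KD, at 12.14 TPM, lay above the highest of Tcf7l1, at 11.17 TPM, whereas in WT these genes overlapped. Axin2 was at 14.1 ± 1.07 TPM. Its KD libraries (13.49 to 15.35 TPM) overlapped those of Nkd1 (12.14 to 15.35 TPM), so the order of these genes in KD was not resolved. Those of Wnt7b and Sfrp1 overlapped in KD too. Ctnnb1 stood at 442 ± 6.34 TPM and Apc at 154 ± 10.8 TPM. Lef1 remained lowest at 0.653 ± 0.374 TPM.

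**Figure D3:**
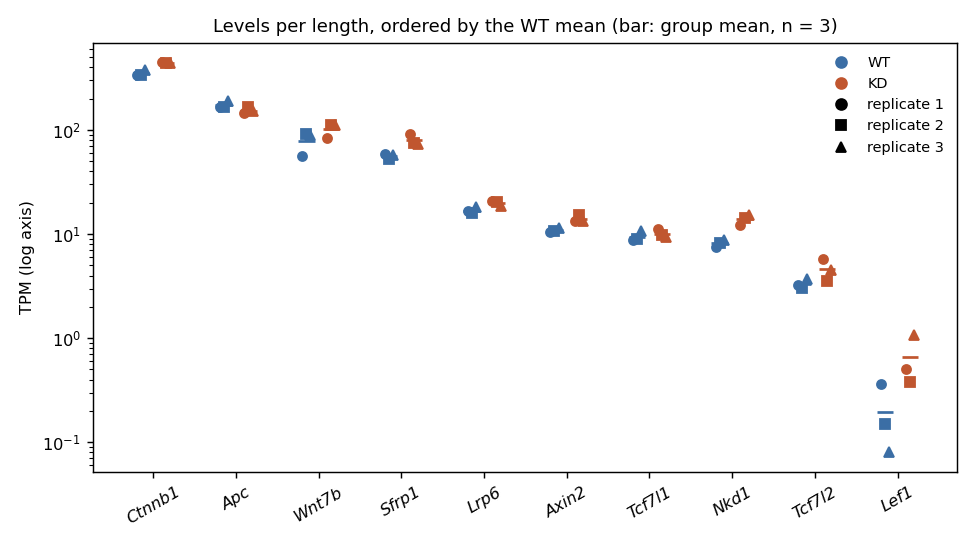
Deposited TPM (log axis) of the 10 Wnt genes in each library, ordered by the WT mean, with bars for group means. The order runs from Ctnnb1 at 354 TPM to Lef1 at 0.197 TPM in WT, and Nkd1 moves from below Tcf7l1 in WT to above it in KD.

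Ratios within a library, chosen after the values were seen, put these changes on a scale free of library normalisation. Nkd1 over Axin2, the ratio of a pair of feedback inhibitors in TPM, was 0.731, 0.758 and 0.774 in WT and 0.8999, 0.938 and 1.14 in KD. Ctnnb1 over Apc, the substrate against the scaffold of its destruction complex, was 2.04, 2.05 and 2.01 in WT and 3.10, 2.65 and 2.90 in KD. Both ratios were higher in every KD library than in every WT library, which follows for Ctnnb1 over Apc from the levels already given. Tcf7l2 over Tcf7l1 went from 0.352 ± 0.0182 to 0.451 ± 0.0806, and Sfrp1 over Wnt7b from 0.753 ± 0.256 to 0.810 ± 0.255. These ratios were not tested, because they were picked on the values.

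The 4 TCF/LEF genes encode factors that recognise the same DNA words, so their shares of the summed TPM were compared. Tcf7l1 held 65.5%, 67.6% and 69.4% of the sum in WT and 61.5%, 67.1% and 59.5% in KD. Tcf7l2 held 23.8% ± 0.809 in WT and 28.1% ± 3.72 in KD, Tcf7 7.24% ± 1.15 and 5.13% ± 0.995, and Lef1 1.45% ± 1.13 and 4.07% ± 2.44. The libraries overlapped between the groups for each of the 4 factors, with exact two-sided permutation p = 0.2 throughout, where 0.1 is the smallest possible. Between same-numbered libraries, the shares of Tcf7l1 and Tcf7 were lower in KD in 3 of 3 numbers and those of Tcf7l2 and Lef1 higher in 3 of 3. The shares were not tested as pairs. Tcf7l1 and Tcf7l2 gave most of the sum in every library. Counts of Tcf7 were fractional in all 6 libraries, whereas those of the 10 Wnt genes were whole in every library.

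**Figure D4:**
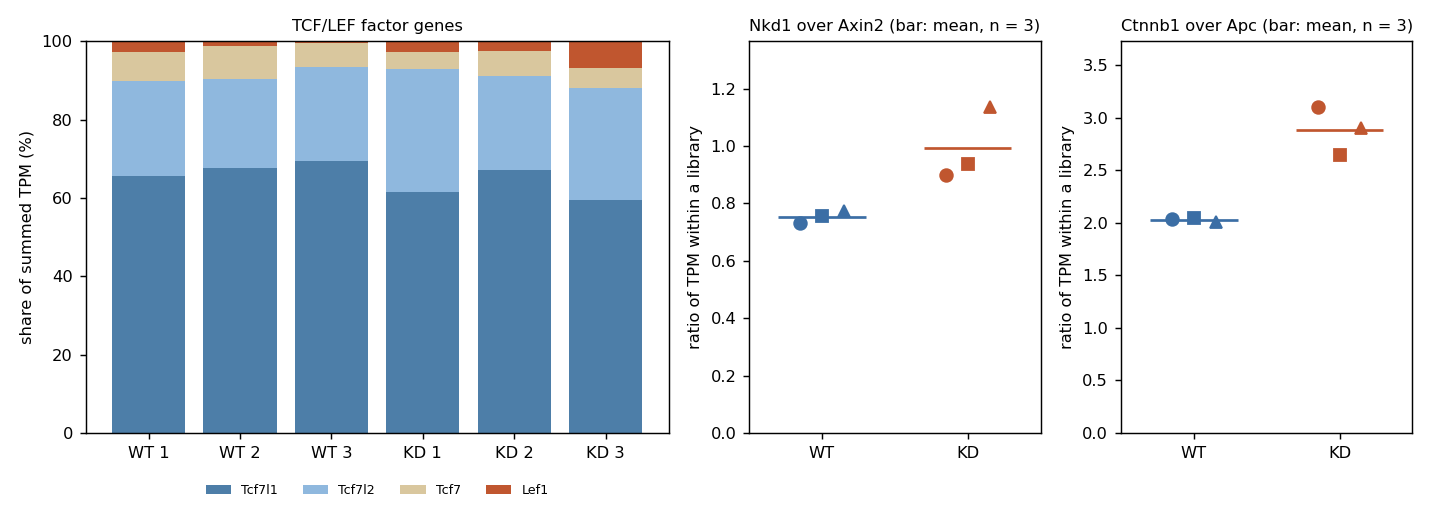
Left, share of each TCF/LEF gene in their summed TPM (%) in each library. Middle and right, ratios of TPM within a library, Nkd1 over Axin2 and Ctnnb1 over Apc, with bars for group means (n = 3). The shares of Tcf7l1 run from 59.5% to 69.4%, and both ratios are higher in every KD library than in every WT library.

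To set the 10 genes within the pathway, lists of 114 pathway genes by role were counted, of which 113 were in the table and 92 were tested. Leaving out the 10 genes, 83 were tested, with 22 higher and 3 lower in KD and a median log2 fold change of 0.11, against 12.04% and 11.9% of all genes tested. With the replicate block, 30 were higher and 7 lower, against 18.6% and 18.1% of all genes, shares that also apply to the block counts by role below. Without the block, leaving out WT replicate 2 gave 10 and 2, and leaving out WT replicate 1 gave 11 and 1. With KD replicate 1, 2 or 3 left out the counts were 14 and 2, 11 and 2, and 15 and 1. On log2(TPM + 1) they were 19 and 1. Calls over all genes moved too, from 1646 higher and 1631 lower. They were 779 and 797 without WT replicate 2 and 1151 and 1131 without WT replicate 1. Without KD replicate 1, 2 or 3 they were 1098 and 1077, 884 and 849, and 1298 and 1262. On log2(TPM + 1) they were 2076 and 1072.

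Among ligands, 9 of 19 listed genes were tested and 1 was higher, a share near the 12.04% of all genes (3 with the block). This was Wnt5a, a ligand best known from signalling that does not need beta-catenin, which rose from 15.2 to 19.5 CPM (log2 fold change 0.36, SE 0.11, adjusted p = 0.0431). Wnt7a, the close relative of Wnt7b, stood at -0.05 (adjusted p = 0.743). Of 5 tested genes for ligand secretion and R-spondins, the R-spondin gene Rspo3, whose product enhances Wnt signalling, was higher (0.60, SE 0.17, adjusted p = 0.0305), and with the block 2 were.

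Of 18 tested receptor and coreceptor genes, 6 were higher and 0 lower, with a median of 0.28, beside 12.04% and 11.9% of all genes. With the block 9 were higher and 0 lower. Beside Lrp6, genes of Frizzled receptors were among them. Fzd1 rose from 23.1 to 40.1 CPM (0.80, SE 0.07, adjusted p = 4.0e-04), Fzd8 from 13.0 to 21.1 CPM (0.71, adjusted p = 0.00327) and Fzd5 from 3.94 to 6.29 CPM (0.68, adjusted p = 0.0424). Fzd3, the most counted of them at 169 CPM in WT, rose by less (0.29, adjusted p = 0.00663).

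Extracellular inhibitors had the highest median of the lists, 0.44 over 10 tested genes, with 5 higher and 0 lower, beside 12.04% and 11.9% of all genes. With the block 5 were higher and 1 lower. Beside Sfrp1, its relative Sfrp2 rose from 8.93 to 14.7 CPM (0.72, adjusted p = 0.00508). Apcdd1, which encodes a membrane inhibitor of Wnt signalling and is also a target, rose from 21.4 to 41.7 CPM (0.96, SE 0.17, adjusted p = 0.00475). Kremen1, a Dickkopf receptor gene, was at 0.55 (adjusted p = 0.0310) and Dkk3, of the Dickkopf family, at 0.41 (adjusted p = 0.0432). Wif1, which encodes a secreted Wnt inhibitor, had the largest change of the list in size and in the other direction. It was at 1.64, 1.54 and 0.685 CPM in WT and at 0.601, 0.549 and 0.546 CPM in KD, with no overlap (-1.18, SE 0.38, adjusted p = 0.0514, and 0.0136 with the block), and was picked out after its values were seen.

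In the list of Dishevelled and the destruction complex, 6 of 20 tested genes were higher and 2 lower, with a median of 0.06, beside 12.04% and 11.9% of all genes. With the block 6 were higher and 3 lower. Csnk1a1, which encodes the kinase that primes beta-catenin for degradation, rose from 236 to 358 CPM (0.60, SE 0.04, adjusted p = 1.7e-04). Csnk1d, another casein kinase gene, was at 0.39 (adjusted p = 0.00172) and Btrc, which encodes a ubiquitin ligase subunit that recognises beta-catenin, at 0.22 (adjusted p = 0.0117). Apc2, the relative of Apc, fell from 772 to 643 CPM (-0.27, SE 0.05, adjusted p = 0.00623), so both Apc genes were lower.

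Of 21 tested genes for beta-catenin, TCF/LEF factors and their cofactors, 6 were higher and 2 lower, beside 12.04% and 11.9% of all genes. The median was -0.00. With the block 8 were higher and 4 lower, beside 18.6% and 18.1% of all genes. The corepressor genes Tle1 (0.66, adjusted p = 4.7e-04), Tle3 (0.31, adjusted p = 0.0210) and Ctbp2 (0.34, adjusted p = 0.0176) were among those higher. The 2 lower were Tle5, of the same family as Tle1 and Tle3 (-0.20, adjusted p = 0.0400), and Pygo1, which encodes a beta-catenin cofactor (-0.22, adjusted p = 0.0283). Tle2 was at -0.18 (adjusted p = 0.0952, and 0.0313 with the block). Hipk2, a nuclear kinase gene, was at 0.30 (adjusted p = 0.0222), with fractional counts in all 6 libraries.

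Of 9 tested feedback regulators and general targets, Axin2, Nkd1 and Apcdd1 were higher and 0 were lower, beside 12.04% and 11.9% of all genes. The median was 0.13, and with the block 4 were higher and 0 lower. Not called were Nkd2 at 0.13 (adjusted p = 0.284), Znrf3 at 0.27 (adjusted p = 0.106, and 0.0254 with the block), Tnfrsf19 at 0.11 (adjusted p = 0.734), Tcf7 at -0.40 (adjusted p = 0.0957), Rnf43 at -0.38 (adjusted p = 0.539) and Lgr5 at -0.19 (adjusted p = 0.740). Lef1, Sp5, Notum and Dkk1 were below the filter. Of 4 tested targets reported in cortex, 1 was higher and 0 lower, beside the same shares of all genes (2 higher with the block). This was Neurog2, which encodes a neurogenic transcription factor (1.58, SE 0.18, adjusted p = 9.0e-04). Mycn was at 0.36 (adjusted p = 0.181, and 3.65e-04 with the replicate block). Myc was at -0.06 (adjusted p = 0.640) and Ccnd1, with fractional counts in all 6 libraries, at -0.13 (adjusted p = 0.6003).

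**Figure D5:**
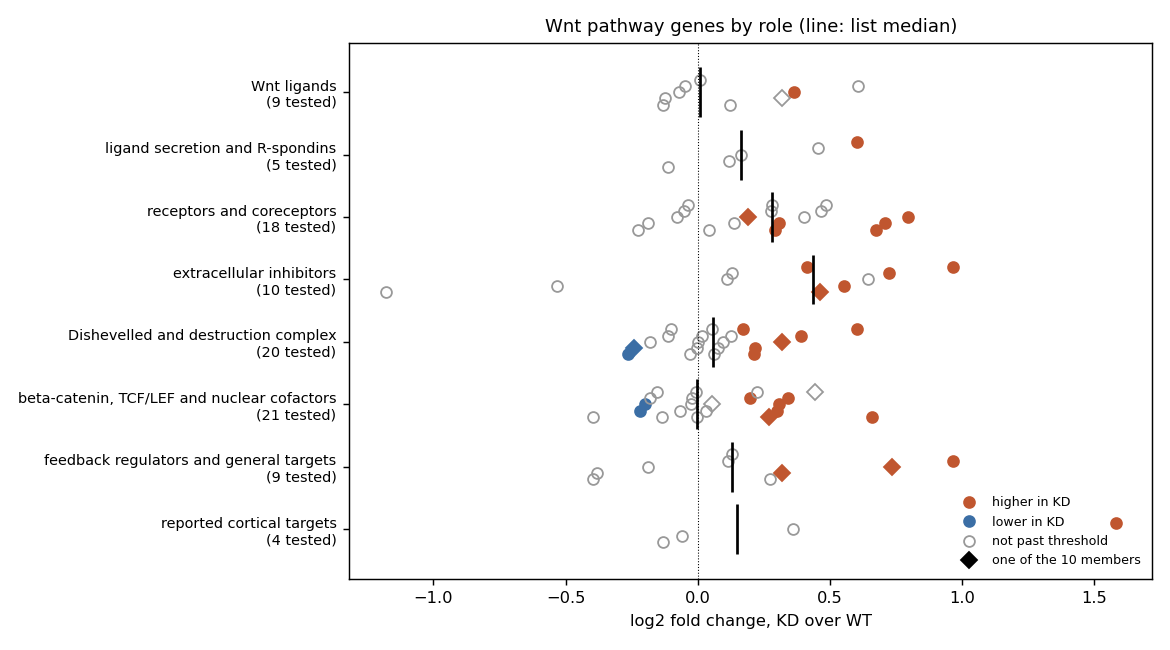
Log2 fold change of KD over WT for tested Wnt pathway genes by role, with lines for list medians, filled symbols for genes called and diamonds for the Wnt genes named first. Medians run from -0.00 for nuclear factors to 0.44 for extracellular inhibitors, and called genes lie to the right of 0 except in the destruction complex and nuclear lists.

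Cell type markers were counted beside these results, since Wnt genes differ between cortical cell types. Their counts stand beside the 12.04% higher and 11.9% lower of all genes, and with the block beside 18.6% and 18.1%. Some markers were also counted in the pathway lists, among them Neurog2, of intermediate progenitors, and Rspo3, of the cortical hem. Markers of S and G2/M phase were higher for 11 of 17 tested genes and lower for 0, and their summed TPM was 442 to 507 in WT and 607 to 784 in KD (16 higher with the block). Intermediate progenitor markers were higher for 5 of 8 tested genes and lower for 0, at 175 to 191 TPM in WT and 233 to 280 TPM in KD (7 higher and 1 lower with the block). Radial glia markers were higher for 3 and lower for 1 of 14, at 3433 to 3938 TPM and 4019 to 4281 TPM (9 higher and 1 lower with the block). Most of that sum was Fabp7, with means of 2582 TPM in WT and 2777 TPM in KD. Fabp7 was not called (log2 fold change 0.04, adjusted p = 0.601). The part of these shifts in the changes of the Wnt genes was not tested.

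Neuron markers were higher for 2 and lower for 3 of 13, with overlapping sums of 6804 to 7566 TPM in WT and 6458 to 7425 TPM in KD (5 higher and 3 lower with the block). Dorsal cortex markers were higher for 4 of 9 and lower for 0, at 667 to 950 TPM and 1017 to 1200 TPM (6 higher with the block). Among these, Pax6, called higher, is also in the radial glia list. Neurod2, called higher, and Neurod6 and Tbr1 are also in the neuron list. Ventral telencephalon markers, which include Gad1 and the Dlx genes and mark cells from outside the cortex proper, were higher for 3 of 10 and lower for 0, at 529 to 752 TPM and 580 to 887 TPM (4 higher and 1 lower with the block). The labelled cortical origin thus has its markers, beside those of ventral lineage.

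Markers of the cortical hem and choroid plexus, a source of Wnt ligands and of R-spondins, were higher for 2 of 7 tested genes, Rspo3 and Otx2, and summed to 14.7 to 16.4 TPM in WT and 22.7 to 25.5 TPM in KD. Thalamus markers summed to 21.6 to 36.0 TPM and 23.3 to 38.6 TPM, with 1 of 5 higher. Oligodendrocyte and astrocyte markers summed to 385 to 484 TPM and 341 to 400 TPM, with 2 of 10 lower (4 with the block). Endothelial markers summed to 6.72 to 8.50 TPM and 10.6 to 11.2 TPM with 1 of 4 higher. That gene, the transporter gene Slco1c1, went from a mean of 5.49 to 9.02 TPM and made up most of the sum, while Pecam1, Kdr, Flt1 and Esam stayed under 1 TPM in both means. Mural and fibroblast markers summed to 7.37 to 9.34 TPM and 9.05 to 9.68 TPM with 1 of 4 higher, and microglia markers to 2.99 to 6.20 TPM and 4.13 to 5.29 TPM with 0 of 1 called. The defining endothelial gene Cldn5 was at 0 in 5 of the 6 libraries. The part of any of these in the Wnt results was not tested.

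Genes whose log2 CPM ran most like that of a target over the 6 libraries were listed as a description. For Nkd1 they were G3bp2, Pomk and Atpaf2, each with Pearson r of 0.997 or above, and 8.17% of 11438 genes compared had r over 0.9. For Axin2 they were Cdk5r1, Exoc5 and Ints2, each at 0.998, with 7.35% of genes over 0.9. For Lef1, whose counts were few, they were Il17d at 0.989, Zmynd19 at 0.985 and Krt222 at 0.978, with 0.699% of genes over 0.9. The 6 libraries share the split into WT and KD.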

How the data were processed

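Total RNA was extracted with Trizol from cultured cells, mRNA was purified and libraries were sequenced on the DNBSEQ platform. The submitters' processing notes name HISAT2 2.2.1, Bowtie2 2.4.5, RSEM 1.3.1 and the builds GRCm38 and mm10, with no roles. The deposited table gives an estimated count for each gene and library, made by the authors, and between 89.3% and 89.9% of these were whole. TPM values were also deposited, scaled by the authors to 1000000 per library. A fractional count arises where reads are divided between genes that share sequence. A further 12 columns (FPKM and group averages) were not used. Columns named Ctrl were matched to the WT titles by number. Of the Entrez numbers, 99.7% matched a RefSeq list, which gave gene positions.

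Rounded estimated counts entered edgeR 4.0.16 under R 4.3.3 (TMM, filterByExpr with a minimum count of 10, quasi-likelihood F-test, Benjamini-Hochberg over 13669 genes, threshold 0.05). The design had assumed whole counts. SE was taken as the size of the log2 fold change over the root of its F statistic. The code was tested on simulated data. Chi-square per degree of freedom between replicates was 4.57 to 9.05, so all 6 libraries were kept as separate samples. Deviations from group means correlated at 0.35, 0.32 and 0.18 for libraries of the same number and at -0.28 to -0.02 for others. The numbers were therefore taken to pair the libraries, but only the replicate block used this pairing in a test. What a number stands for is not given in the labels. Alternatives were RLE, upper quartile and unscaled totals, 2 other filters, DESeq2 1.42.0, limma 3.58.1 with voom and on log2(TPM + 1), the replicate block and each library left out.

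All 10 Wnt genes were named, with at most 4 called genes per pathway list (mean of at least 1 CPM, smallest adjusted p). For each target, the 3 genes of at least 5 CPM with the most similar profile were named too. Other genes named were picked after their values were seen. The Wnt genes, lists and markers were chosen with earlier results of these data known.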

Additional observations from a re-analysis of the deposited data

How the results depend on the processing

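With the replicate block, 2539 genes were higher and 2470 lower, against 1646 and 1631 without it, and all 3277 calls were shared. The block added calls for Wnt7b and Tcf7l2 and lost none among the 10 Wnt genes, and gave 7 lower among other pathway genes. On log2(TPM + 1) in limma, 2076 genes were higher and 1072 lower (65.9% of calls higher, against 50.2%), 0 Wnt genes and 1 other pathway gene were lower, and the median of all genes moved to 0.05. Of the calls, 43.0% were higher with the upper quartile and 57.9% with unscaled totals. Leaving out 1 library gave 779 to 1612 higher and 797 to 1583 lower genes, with the fewest when WT replicate 2 was missing. For the 10 Wnt genes it gave 3 to 5 higher and 0 to 1 lower. It gave 3 higher without WT replicate 1, WT replicate 2 or KD replicate 2, and 0 lower without WT replicate 2 or KD replicate 1. For other pathway genes it gave 10 to 20 higher and 1 to 4 lower. The component median was 0.18 to 0.31 (lowest without WT replicate 1) and the target median 0.50 to 0.57. Tcf7l1, not called, lay between -0.018 and 0.14 when 1 library was left out, and was below 0 without WT replicate 1 (-0.0046) and without KD replicate 1 (-0.018). Nkd1, Ctnnb1, Sfrp1 and Ybx1 kept direction and call in all 15 alternatives, and the Tcf7l1 share difference (-4.82 percentage points) lay between -7.02 and -2.72. Causes were not tested. Alternatives for a table without counts did not apply. With library totals of 16294635 to 16497505, Lef1 had 2 to 23 counts and was left unresolved.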
